A study of Mus musculus with 17 samples.

Results

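Expression of 10 genes of hepatic fatty acid synthesis and its control was examined in RNA-seq libraries of mouse hepatocytes that had lost Apc. They are Thrsp, the transcription factors Srebf1 and Mlxipl, the enzyme genes Acly, Acaca, Fasn, Elovl6, Scd1 and Me1, and Pnpla3. The genes were taken by name as a known pathway, with earlier results of these data known, and are 10 of the 55536 genes in the deposited tables. All 10 had reads, and 9 passed the filter on low counts. Pnpla3 did not, with 3 to 23 expected counts per library.

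De novo lipogenesis turns surplus carbohydrate into fatty acids in the liver. Citrate leaves the mitochondrion and is cleaved to acetyl-CoA by ATP citrate lyase (Acly), acetyl-CoA carboxylase (Acaca) makes malonyl-CoA, and fatty acid synthase (Fasn) builds palmitate, which Elovl6 lengthens and Scd1 desaturates. Malic enzyme (Me1) supplies NADPH. SREBP-1, encoded by Srebf1, answers to insulin and liver X receptors, ChREBP, encoded by Mlxipl, answers to glucose metabolites, and Thrsp (Spot 14) is a small acidic protein long known as a thyroid hormone and carbohydrate responsive gene of liver and fat.

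The hepatocytes came from C57BL/6J mice aged 3 months with the ApcDHep genotype, in which Apc, a brake on β-catenin, is deleted in hepatocytes. Both groups carried that deletion and received 2 mg tamoxifen (7 days) and, for 1 month, an AAV8 vector with SaCas9 constructs. One group, labelled DLK1DWRE, was edited at a β-catenin binding site near the DLK1/DIO3 locus and is called WRE-edited here (6 libraries). The other, labelled ROSA26, was edited at the Rosa26 control locus (5 libraries). Cells were freed by collagenase perfusion, so each library is bulk RNA, in which fewer cells of a type and less RNA per cell cannot be told apart. The sources used here do not name the promoter behind the Apc deletion. Nor do the labels say that each library came from its own mouse, so the p-values rest on a spread between libraries that may in part be technical.

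The libraries carry a run number in their names. Replicates 1 to 3 of both groups belong to run r770. Run r595 held WRE-edited 6 and Rosa26-edited 4 and 5, and run r711 held WRE-edited 4 and 5 with no control. WRE-edited 4 and 6 share a number in their library names and may not be independent. Totals were 20727036 to 38935135 expected counts per library. Mitochondrial ribosomal RNA took 2.29 to 3.00% of counts in r595 and 19.02 to 29.09% in the other runs, with overlapping group ranges in r770 (19.02 to 23.26% WRE-edited, 19.17 to 28.07% Rosa26-edited). Its part in the results was not tested beyond an alternative without mitochondrial genes, in which Thrsp kept a log2 difference of -1.02.

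Promoter sequence is shown for the gene the set is named for and for the ChREBP gene. The first had the largest group difference, and the second holds the one match to the E-box form CACGTG among the members' promoters searched. Other E-box forms were not searched. Both stretches are the 250 bases before a RefSeq transcription start (GRCm38.p6), 5′ to 3′ on the gene's strand, with matches to the motifs searched in capitals. They lie at chr7:97417551-97417800 (minus strand, Thrsp) and chr5:135089640-135089889 (plus strand, Mlxipl, second start in the table).
Thrsp: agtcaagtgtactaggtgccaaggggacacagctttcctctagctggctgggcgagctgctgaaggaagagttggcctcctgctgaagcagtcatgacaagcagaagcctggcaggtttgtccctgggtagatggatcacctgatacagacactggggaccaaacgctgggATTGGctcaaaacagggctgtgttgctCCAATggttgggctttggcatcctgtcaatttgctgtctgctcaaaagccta
Mlxipl: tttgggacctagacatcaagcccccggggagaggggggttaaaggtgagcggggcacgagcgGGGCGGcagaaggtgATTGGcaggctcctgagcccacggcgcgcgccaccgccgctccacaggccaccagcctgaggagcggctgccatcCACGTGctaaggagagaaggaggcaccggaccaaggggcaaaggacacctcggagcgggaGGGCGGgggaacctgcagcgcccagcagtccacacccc

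In the Thrsp promoter the capitals are CCAAT boxes, one on the opposite strand 79 to 75 bases before the start and one on the gene's strand 52 to 48 bases before it. It held no match to the E-box CACGTG, the sterol element core TCACNCCAC, the GC box GGGCGG, the nuclear receptor half-site AGGTCA or the TCF site CTTTGAT. The Mlxipl promoter held CACGTG 98 to 93 bases before its start, a CCAAT box on the opposite strand that begins 173 bases before it, and a GC box at 188 to 183 and at 38 to 33 bases. Of 13 promoters listed for 9 of the members (Scd1 was not matched), 7 held CCAAT, against 33.8% of all 32851 promoters of that length, and 6 held GGGCGG, against 32.7%. CACGTG was in 1 of the 13 and in 6.02% of all promoters, AGGTCA in 2 and 14.0%, TCACNCCAC in 1 (another Mlxipl start) and 1.05%, and CTTTGAT in 0 and 3.21%. Both strands were searched and motifs may overlap. A match is a run of letters and not a measured binding site.

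Levels of different genes were compared as the deposited TPM, which divides by transcript length. Scd1 was first in all 11 libraries, with a median of 184 TPM and a range of 72.8 to 1080 TPM. Acly (median 38.0), Fasn (34.6) and Thrsp (33.8) followed and did not keep their order, since Acly was above Fasn in 4 libraries and Fasn above Thrsp in 6. Next came Mlxipl (19.8), Me1 (18.9), Acaca (16.6), Srebf1 (14.6) and Elovl6 (12.2), which again crossed over between libraries, and Elovl6 was above Pnpla3 in all 11. Pnpla3, a lipase family gene that lipogenic signals induce, was last in every library with a median of 0.14 TPM. Together the members held 0.02 to 0.143% of TPM.

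TPM was not used to compare libraries, because the 7SL RNA genes Rn7s1 and Rn7s2 alone took 28.9 to 53.7% of it. The effective length that enters TPM also moved with the run for some members. For Scd1 it was 1213 to 1404 bases in r595 and 4592 to 4680 bases in r770 and r711, so its 3 highest TPM values, 649, 863 and 1080, were all from r595. Srebf1 lay at 1503 to 1663 bases in r595 against 2491 to 2829 in r770, and Fasn at 5904 to 6290 against 7096 to 8100. Me1 moved the other way, at 2903 to 3148 bases in r595 against 2231 to 2568 in r770. Thrsp stayed between 1109 and 1159 bases in every library. Differences between libraries are therefore given in CPM (counts divided by library size scaled with TMM factors), within run.

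**Figure D1:**
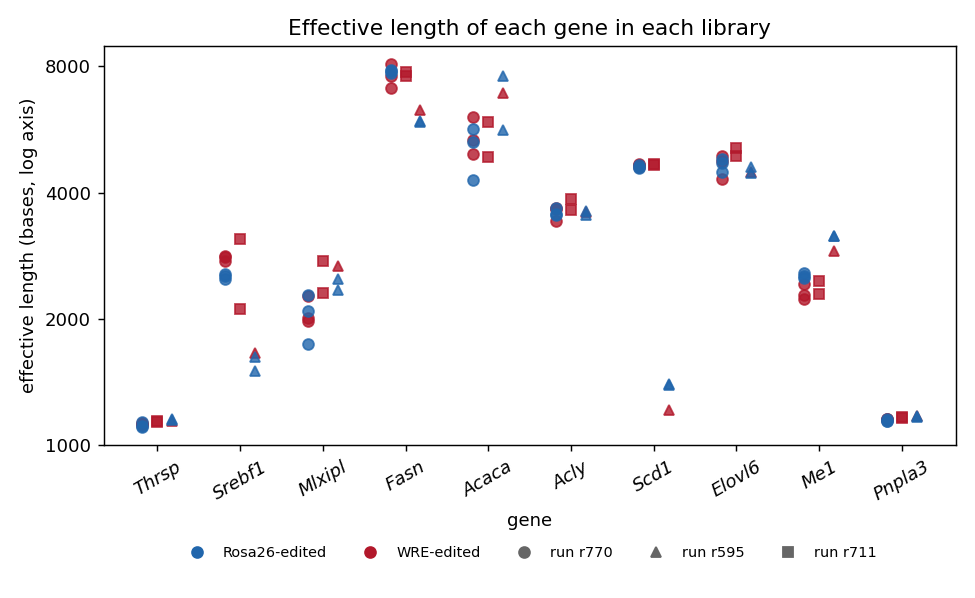
Effective length of each member (bases, log axis) in each of the 11 libraries, coloured by group and shaped by run. Scd1, Srebf1 and Fasn sit lower in r595 (triangles) than in the other runs, Me1 sits higher, and Thrsp lies at 1109 to 1159 bases throughout.

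Thrsp was the member that differed most between the groups. Its CPM in the Rosa26-edited libraries was 114, 67.3 and 106 in r770 (replicates 1 to 3) and 67.9 and 45.4 in r595 (replicates 4 and 5). In the WRE-edited libraries it was 62.3, 40.4 and 33.8 in r770 (replicates 1 to 3), 53.5 and 55.4 in r711 (4 and 5) and 29.99 in r595 (6). Within each run that has controls the WRE-edited values were all under the Rosa26-edited ones, but across runs the groups overlapped, since Rosa26-edited 5 was below WRE-edited 1, 4 and 5. Such a gap in both r770 and r595 was found for 350 of 14393 genes tested, or 2.43%.

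The group means for Thrsp were 45.9 ± 13.02 CPM (SD, n = 6) WRE-edited and 80.1 ± 28.9 CPM (SD, n = 5) Rosa26-edited. With the run in the model, the log2 difference was -1.03 ± 0.21 (SE), a 2.04-fold lower level, with a 95% interval of -1.49 to -0.57. The simple difference of mean log2 CPM was -1.08 in r770 and -0.89 in r595, so both runs with controls gave a similar size. By edgeR's quasi-likelihood test the unadjusted p was 0.000376, rank 20 of 14393 genes, and the adjusted p was 0.263, above the threshold of 0.05. At that threshold edgeR called 1 gene of 14393 in either direction, or 0.00695%, and none of the 9 members tested. At an unadjusted p under 0.05 it placed 740 genes lower, or 5.14%, and 1 of the 9 members, Thrsp.

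DESeq2 on the same design gave Thrsp -1.02 with an adjusted p of 0.00220 and called it lower, as it did 66 genes, or 0.459% of those tested. No other member was called by DESeq2. Whether Thrsp passes the threshold therefore depended on the test, while its direction held in all 22 alternatives (log2 difference -1.20 to -0.66). Leaving out any single library gave -1.20 to -0.90.

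**Figure D2:**
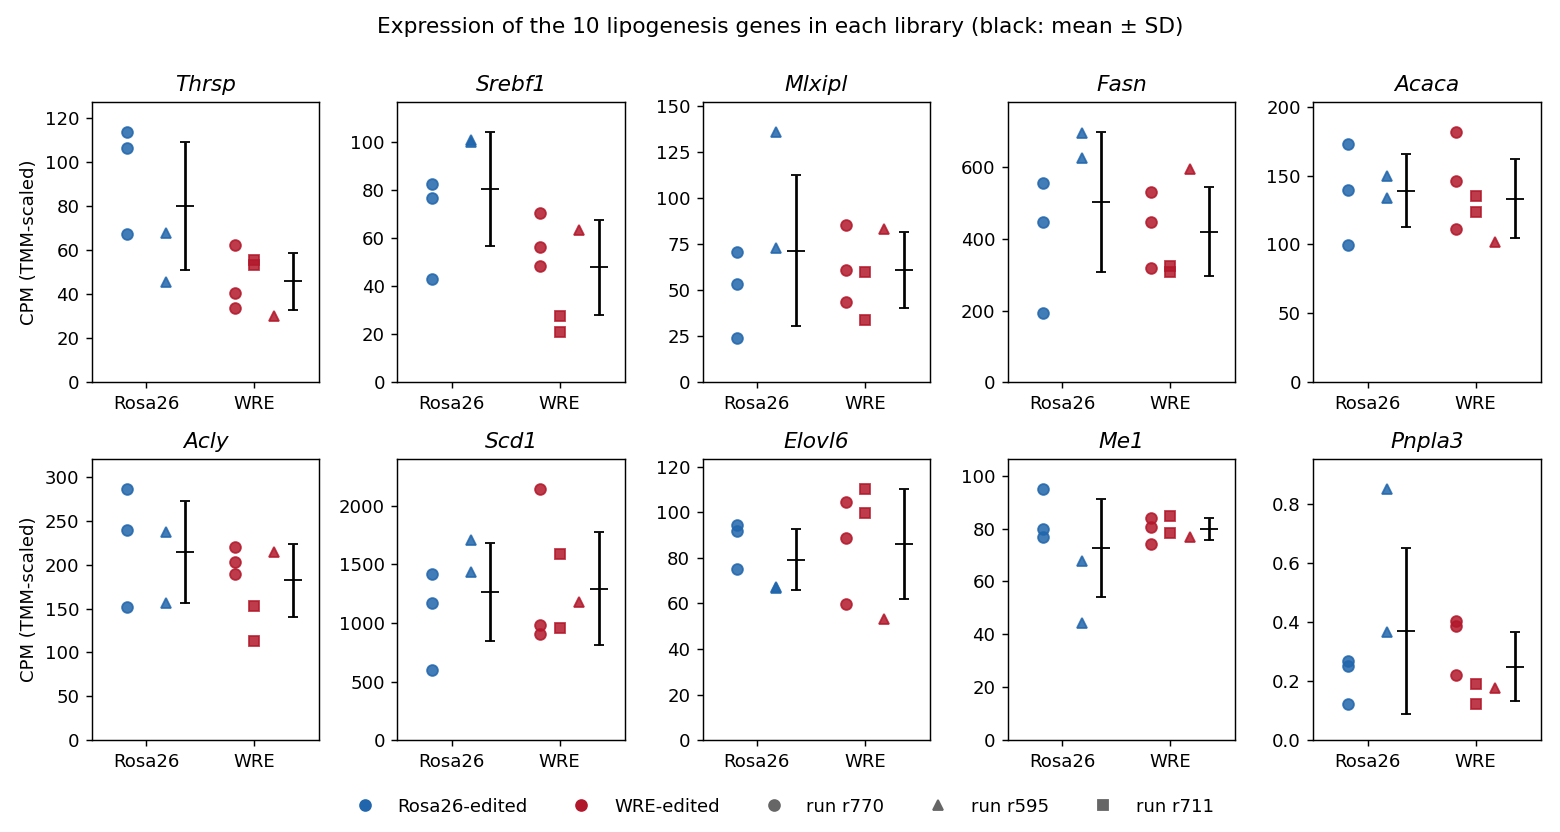
TMM-scaled CPM of each of the 10 members in every library, by group (colour) and run (shape), with the mean and SD of each group in black. Thrsp is lower in the WRE-edited libraries of each run that has controls, and for most other members the groups overlap.

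Srebf1, the gene of SREBP-1, was nearest to Thrsp in direction. It stood at 76.6, 42.7 and 82.2 CPM in Rosa26-edited 1 to 3 and at 100 and 101 CPM in Rosa26-edited 4 and 5. WRE-edited libraries read 70.5, 48.1 and 56.1 CPM in r770, 27.6 and 20.9 in r711 and 63.3 in r595. The groups overlapped in r770, where Rosa26-edited 2 was the lowest of the 6 libraries, and did not in r595. The fitted log2 difference was -0.34 ± 0.20 (SE; 95% interval -0.78 to 0.09, edgeR adjusted p = 0.564), with -0.17 in r770 and -0.66 in r595. It was -0.21 without WRE-edited 6 and -0.52 without Rosa26-edited 2. The 2 r711 libraries, with the lowest Srebf1 of all, have no control in their run and do not enter this difference.

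Mlxipl showed the widest spread of the tested members, from 24.0 CPM in Rosa26-edited 2 (r770) to 136 CPM in Rosa26-edited 4 (r595). This 5.68-fold range lies inside one group but crosses runs, whose Rosa26-edited means were 49.6 CPM (r770) and 104.6 CPM (r595). The other Rosa26-edited libraries had 53.6, 71.1 and 73.0 CPM (replicates 1, 3 and 5). Among WRE-edited libraries the lowest was 33.9, the median 60.5 and the highest 85.5 CPM. The log2 difference was 0.15 ± 0.35 (SE), its interval ran from -0.62 to 0.93, and the runs gave opposite signs (0.44 in r770, -0.26 in r595). Neither Srebf1 nor Mlxipl differed beyond the spread between libraries, and both intervals include changes of either sign.

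The first enzymes of the route lay close to 0. Acly, which makes cytosolic acetyl-CoA, averaged 182 ± 41.5 CPM (SD, n = 6) WRE-edited and 214 ± 58.3 CPM (SD, n = 5) Rosa26-edited, a fitted log2 difference of -0.06 ± 0.19 (SE). Acaca, the committed step, averaged 133 ± 28.5 and 139 ± 26.7 CPM, a difference of -0.08 ± 0.19. Its sign differed between runs, at 0.10 in r770 and -0.47 in r595.

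Fasn carried more reads than any member but Scd1. Rosa26-edited libraries 1 to 5 had 447, 193, 555, 695 and 625 CPM, and WRE-edited libraries 1 to 6 had 448, 530, 318, 325, 308 and 596 CPM. The groups overlapped, and the lowest library of all, Rosa26-edited 2, was a control. The fitted log2 difference was 0.04 ± 0.26 (SE), with an interval of -0.53 to 0.60 and an edgeR adjusted p of 0.968. Run r770 gave 0.22 and r595 gave -0.15.

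The enzymes that finish the fatty acid gave the same picture. Scd1, the stearoyl-CoA desaturase, had 1419, 602, 1167, 1708 and 1437 CPM in Rosa26-edited 1 to 5 and 986, 2142, 908, 1590, 958 and 1178 CPM in WRE-edited 1 to 6, and its log2 difference was 0.12 ± 0.33 (SE). The highest Scd1 of all libraries was WRE-edited 2, and the lowest was Rosa26-edited 2. Elovl6 averaged 86.1 ± 24.0 CPM WRE-edited and 79.1 ± 13.4 CPM Rosa26-edited, with a fitted difference of -0.13 ± 0.16. Its fitted sign is opposite to that of the raw means, since the 2 r711 libraries, at 99.8 and 110 CPM, raise the WRE-edited mean and have no control.

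Me1 was the steadiest member in WRE-edited libraries, 79.7 ± 4.11 CPM (SD, n = 6), a coefficient of variation of 5.15%. In Rosa26-edited libraries it was 72.7 ± 18.6 CPM (SD, n = 5), or 25.6%, with 44.4 CPM in replicate 5 and 67.9 to 94.9 CPM in the rest. The log2 difference was 0.09 ± 0.15 (SE), and Me1 was the one member above both controls in r595, where WRE-edited 6 had 76.7 CPM. The difference in spread between the groups was not tested. Pnpla3 was read at 0.22, 0.40, 0.39, 0.19, 0.12 and 0.18 CPM in WRE-edited 1 to 6 and at 0.27, 0.12, 0.25, 0.85 and 0.37 CPM in Rosa26-edited 1 to 5, too few counts for a fold.

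Over the 9 members tested, 5 log2 differences were negative and 4 positive, with a median of -0.06, beside a median of 0.01 and 48.3% negative over all genes. In r770 alone 1 of 9 members, Thrsp, had all WRE-edited below all Rosa26-edited libraries, and 4.34% of all genes did. In r595, WRE-edited 6 was below both controls for 6 of 9 members (Thrsp, Srebf1, Fasn, Acaca, Scd1 and Elovl6), but with 1 library against 2 this held for 34.4% of all genes. The difference of the effect between these runs passed edgeR's threshold for 0.0% of 14582 genes (951 at an unadjusted p under 0.05, and 7 called by DESeq2). Thrsp gave 0.16 ± 0.50 (SE) for r595 minus r770. Among the other 8 members tested in the main fit the values ran from -0.76 (Scd1) to 0.52 (Me1). Pnpla3, which passed the filter in this fit without r711, gave -2.44 ± 1.17 (SE). It had only 3 to 23 counts per library over all runs.

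**Figure D3:**
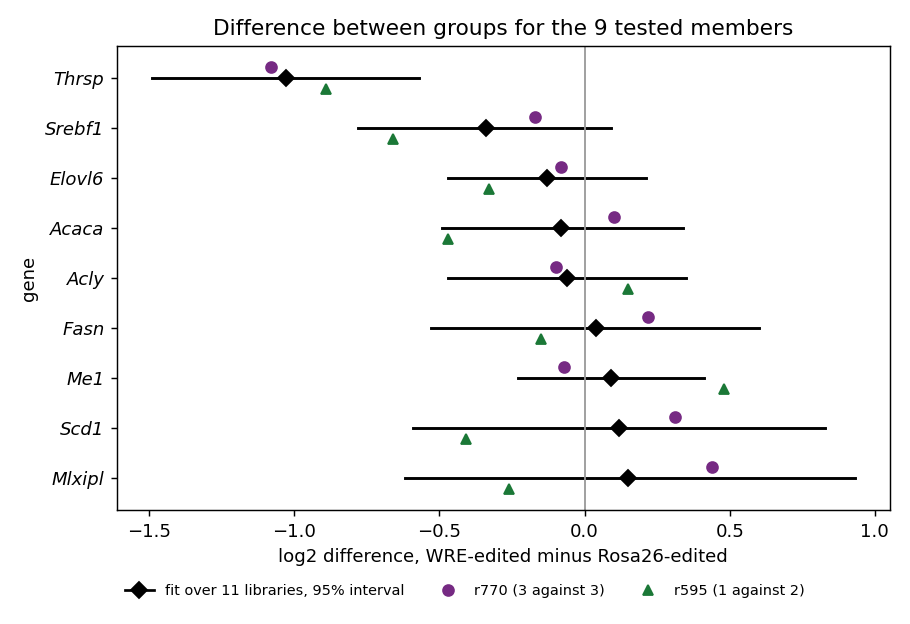
Fitted log2 difference (WRE-edited minus Rosa26-edited) with its 95% interval for the 9 members tested, and the differences of mean log2 CPM within r770 (circles) and r595 (triangles). Thrsp, at -1.03, is the one member whose interval leaves out 0.

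How the members' signs fell out rested on single libraries. Without Rosa26-edited 2, 8 of 9 log2 differences were negative (median -0.19), and without WRE-edited 2 there were also 8 (median -0.23). Without Rosa26-edited 3 only 3 were negative (median 0.09). Rosa26-edited 2 was the lowest library of its run for 7 of the 10 members, and WRE-edited 2 the highest for 5. Of all 11 libraries, Rosa26-edited 2 was also the highest for 3 of 6 macrophage markers (Clec4f, Adgre1 and Vsig4) and 5 of 7 stellate markers. It was highest for 3 of 4 neutrophil and 2 of 3 erythroid markers, but for 1 of 6 endothelial markers. It was highest for 0 of 7 hepatocyte markers, as were WRE-edited 3, 4 and 6 and Rosa26-edited 1 and 4. Its hepatocyte markers summed to 56400 CPM, inside the WRE-edited range of 46840 to 64530 CPM. Rosa26-edited 5 was highest for 3 of 6 macrophage markers too, and was lowest of its run for 2 of the 10 members. The part of these cells in the low lipogenic levels of Rosa26-edited 2 was not tested. Thrsp too was lower there than in the other 2 controls of the run (67.3 against 114 and 106 CPM), but above the 3 WRE-edited libraries of that run (33.8 to 62.3 CPM).

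Co-variation was measured on log2 CPM centred within run, so that it describes libraries of one run against each other. Thrsp went most closely with Srebf1, with Pearson's r 0.67 and Spearman's rho 0.55 over 11 libraries (exact permutation within run, two-sided, p = 0.0706 and 0.146, adjusted over 9 relations 0.635 and 0.966). Without the 2 libraries farthest from the Thrsp median, WRE-edited 3 and Rosa26-edited 1, r was 0.69, and in r770 alone it was 0.65. Elovl6 was next, at r 0.52 and rho 0.45 (exact permutation p = 0.184, adjusted 0.83), but r was 0.16 without those 2 libraries. It was 0.17 without WRE-edited 3 alone and 0.89 without WRE-edited 2 (rho 0.79, exact permutation p = 0.00694, adjusted 0.0625), so its size rests on single libraries. No relation passed the threshold, here or in any of the 14 alternatives run (lowest adjusted p 0.0625, for Elovl6).

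With the other enzyme genes Thrsp had lower values of r, 0.24 with Fasn, 0.30 with Acaca, 0.17 with Acly, 0.08 with Scd1 and 0.00 with Me1, and it was also 0.00 with Mlxipl. Centred by group as well as run, r was 0.69 with Fasn, 0.71 with Srebf1, 0.55 with Elovl6 and 0.47 with Acaca. It was 0.37 with Mlxipl, 0.36 with Scd1, 0.34 with Me1 and 0.24 with Acly. Centred within run only, r without WRE-edited 2 was 0.63 with Acaca, 0.53 with Scd1 and 0.46 with Fasn. Without Rosa26-edited 3 these values were 0.15, 0.07 and 0.06, so they rest on single libraries.

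**Figure D4:**
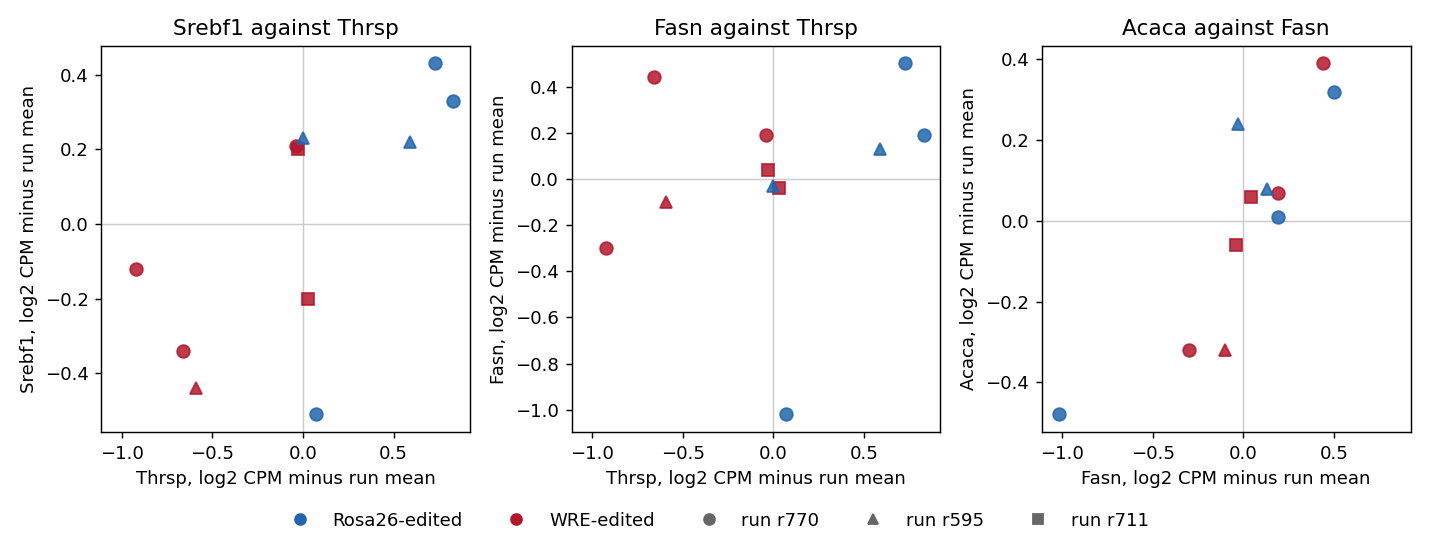
Log2 CPM minus the run mean for Srebf1 against Thrsp, Fasn against Thrsp and Acaca against Fasn, 1 point per library, coloured by group and shaped by run. Srebf1 and Acaca climb with the gene on their x axis (r 0.67 and 0.86), while Fasn spreads widely against Thrsp (r 0.24), with Rosa26-edited 2 far below the rest.

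Most enzyme pairs had a positive r. The 15 pairs among Acly, Acaca, Fasn, Elovl6, Scd1 and Me1 had a median r of 0.61, against 0.17 for the 9 pairs with Thrsp, a gap that was not tested. Centred by group as well, these medians were 0.66 and 0.37. Fasn and Acaca, consecutive steps, had r 0.86 and rho 0.85 (exact permutation p = 0.0015, adjusted over 45 pairs 0.0677), and 0.80 without the 2 libraries farthest from the Fasn median. Acaca and Elovl6 had r 0.83 and rho 0.85, and Mlxipl and Scd1 r 0.84 and rho 0.78 (exact permutation p = 0.00926 and 0.00937, each adjusted to 0.0825). Of Mlxipl's other pairs, those with Fasn and Acaca had r 0.77 and 0.63, and 0.31 and 0.17 without the 2 libraries farthest from the Mlxipl median, so both rest on those libraries. Of all 45 pairs 39 had a positive r and 9 an unadjusted p under 0.05, and 0 passed after adjustment. Me1 was the exception in this centring, with a median r of 0.01 to the other members and -0.21 to Elovl6. Its median was 0.31 when centred by group as well and 0.39 in r770 alone, against 0.52 and 0.5 for all pairs. The points share library depth and cell makeup, and the same shares over pairs of other genes are not given here. The counts and medians of r therefore do not set the members apart from other genes.

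**Figure D5:**
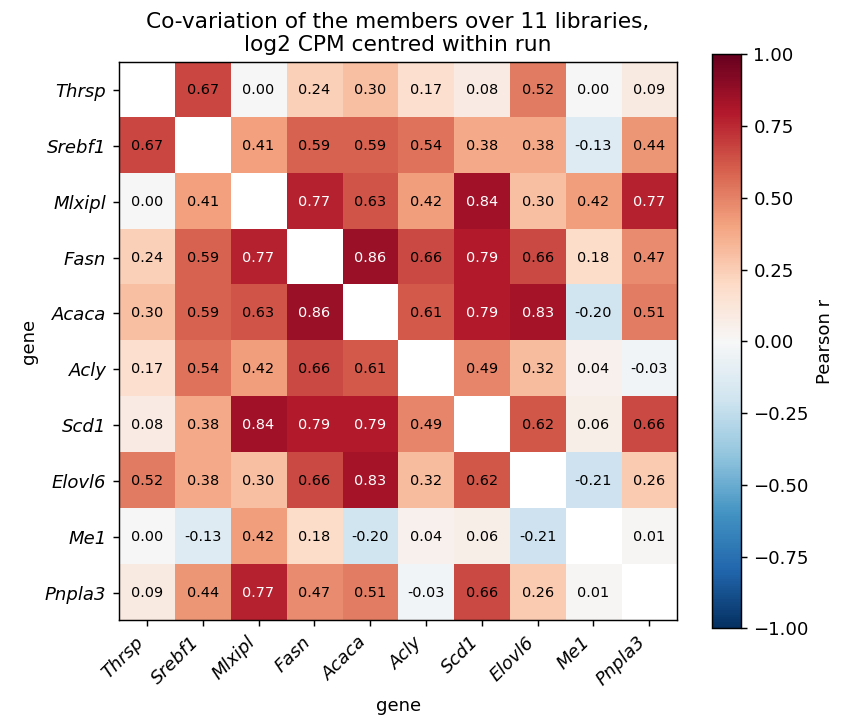
Pearson's r between each pair of members over 11 libraries, from log2 CPM centred within run. The block of Mlxipl, Fasn, Acaca and Scd1 holds r from 0.63 to 0.86 (Mlxipl with Fasn and with Acaca resting on 2 libraries). The Thrsp row lies lower except with Srebf1 (0.67), and its values with Fasn, Acaca and Scd1 moved with single libraries.

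Among 6824 genes with a mean of at least 10 CPM, those most like Thrsp by this measure were Plcl2 and Shprh (both r 0.96), Tcf12 (0.94), Gbp7 (0.93) and Manea (0.92). Gbp7, an interferon-inducible GTPase, had a log2 difference of -0.63 ± 0.18 (SE). The most opposite were Entr1 (-0.94), Napa (-0.92) and Ppp2cb (-0.92). Both ends were picked as the extremes of 6824 values over 11 libraries, and these values were not tested. The centring leaves the group difference in. Centred by group as well, r was 0.92 for Plcl2, 0.95 for Shprh, 0.89 for Tcf12, 0.86 for Gbp7 and 0.79 for Manea. Srebf1 ranked 375 in that order, in the top 5.5%, and Fasn 1836. Mid1ip1, the paralog of Thrsp whose protein promotes the polymerisation of acetyl-CoA carboxylase, ranked 572 (r 0.60), at 10.1 CPM WRE-edited and 15.9 CPM Rosa26-edited (log2 difference -0.33 ± 0.20).

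The genes around the pathway were read from the same model by lists of known function, and edgeR called 0 genes of each list at an adjusted p under 0.05. Of 18 genes that control SREBP, 4 had an unadjusted p under 0.05 with a higher and 1 with a lower level (median log2 difference 0.18). Over all genes 713 were higher at that p, or 4.95%, and 5.14% lower. The lower one was Insig1, which holds SREBP in the endoplasmic reticulum and is itself an SREBP target, with 154 ± 39.3 CPM WRE-edited and 264 ± 50.9 CPM Rosa26-edited (log2 difference -0.63 ± 0.17, edgeR adjusted p = 0.384). Its sign was the same in r770 (-0.60) and r595 (-0.67). Insig2 lay at 0.05, the SREBP escort Scap at 0.46 ± 0.18, the retinoid receptor Rxra at 0.50 ± 0.19, Usf2 at 0.39 ± 0.13 and the liver X receptor Nr1h3 at 0.08. Of 9 liver X receptor targets 4 were positive and 5 negative (median -0.06), with Abca1 at -0.26, Abcg8 at 0.23 and Lpcat3 at 0.24.

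Among 17 partners and glycolytic targets of ChREBP the median was 0.00, with 8 positive and 9 negative. Arrdc4, Pgam1 and Gpi1 lay at 0.42, 0.29 and 0.28. For 12 thyroid hormone response genes the median was 0.02, with 7 positive and 5 negative. The receptor genes Thrb and Thra stood at -0.16 ± 0.16 and -0.01, and Med1 at 0.18. Hr stood at -1.08 ± 0.56, and at -0.53 without Rosa26-edited 5, which had 3.45 CPM where the other 10 libraries had 0.318 to 1.13. Slco1c1, at 0 to 0.684 CPM, was too low for a fold.

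Supply and downstream genes had small positive medians, near 0 in r770 and higher in r595, which has 1 WRE-edited library. By run the medians were -0.04 in r770 and 0.32 in r595 for citrate supply, -0.05 and 0.20 for elongation, and 0.03 and 0.28 for triglyceride synthesis. Of 18 genes for citrate, acetyl-CoA and NADPH, 14 were positive (median 0.06), with the citrate carrier Slc25a1 at 0.28 ± 0.14 and Me2 at -0.46 ± 0.30. The list of other elongation and desaturation genes also holds acyl-CoA synthetases (Acsl genes) and Acacb. Of its 20 genes tested 11 were positive, with a median of 0.07 (Hacd2 -0.35, and the acyl-CoA synthetases Acsl3 -0.39 and Acsl4 -0.30). Triglyceride synthesis genes were positive in 10 of 13 (median 0.13), with Agpat3 at 0.31, Lpin3 at 0.28 and Gpam, the first acyl transfer, at -0.27 ± 0.15.

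Lipid droplet and lipolysis genes had a median log2 difference of 0.34 over 16 tested, with 12 positive and 5 higher at an unadjusted p under 0.05 (4.95% of all genes were). Cidec, which enlarges lipid droplets, stood at 1.52 ± 0.51, and at 0.97 without WRE-edited 6. Its level was 1.122 to 2.62 CPM in 5 WRE-edited libraries, 9.21 CPM in WRE-edited 5, which has no control in its run, and 0.178 to 0.922 CPM in Rosa26-edited libraries. The lipase Pnpla2 lay at 0.57 ± 0.17 (0.35 without WRE-edited 6) and Fitm2 at 0.38 ± 0.12. Fasting response genes had a median of 0.26 over 13, with 9 positive and 4 higher at an unadjusted p under 0.05, again beside 4.95% of all genes. Creb3l3 averaged 137 ± 26.8 CPM WRE-edited and 85.3 ± 11.1 CPM Rosa26-edited (0.52 ± 0.13). Its adjusted p was 0.361 by edgeR and 0.0439 by DESeq2, which called 17 genes higher, or 0.118%. Angptl4 lay at 0.99 ± 0.42. The sources used here do not give the feeding state of the mice, and its part in the difference of Thrsp was not tested. Clock genes were split, 8 positive and 8 negative (median -0.04), with Cry1 at 0.74 (0.18 without WRE-edited 3), Arntl at 0.33 and Clock at -0.27.

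Markers of hepatocytes (7 of 8 in the tables) summed to 46840 to 64530 CPM WRE-edited and 50170 to 63270 CPM Rosa26-edited, the largest sum of any marker list. Pericentral markers summed to 17340 to 27890 and 17090 to 20130 CPM, and periportal markers to 489 to 1383 and 552 to 939 CPM. Adipocytes also express Thrsp, but their 6 markers summed to 1.19 to 2.77 CPM WRE-edited and 0.749 to 3.66 CPM Rosa26-edited, with Lep at 0 in every library and Adipoq at 0 in all but WRE-edited 5. The 6 macrophage markers summed to 178 to 281 and 174 to 679 CPM, the top value being Rosa26-edited 5, where Marco alone had 370 CPM. Over all runs together, ranges overlapped for stellate (39.8 to 103 against 70.0 to 99.6 CPM) and endothelial markers (99.5 to 158 against 96.8 to 165). They also overlapped for cholangiocyte (6.09 to 13.3 against 7.06 to 24.1) and neutrophil markers (3.20 to 5.89 against 2.43 to 18.7). The same held for lymphocyte (0.381 to 1.05 against 0.595 to 1.74) and erythroid markers (7.47 to 10.5 against 6.49 to 22.8). Within r595 several sums did not overlap, but with 1 library against 2, 34.4% of all genes were below both controls. The stellate sum was 39.8 CPM in WRE-edited 6 against 83.3 and 72.7 CPM in the controls. The hepatocyte sum was lower too (46800 against 50200 and 61800 CPM), as were the periportal, neutrophil, lymphocyte and erythroid sums. The pericentral sum was higher, at 27900 against 17100 and 17900 CPM. In r770 all of these sums overlapped, the stellate sum at 40.6 to 103 CPM WRE-edited and 70.0 to 99.6 CPM Rosa26-edited. The part of these cell types in the differences above was not tested.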

How the data were processed

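Gene expression was measured by RNA-seq in 6 WRE-edited and 5 Rosa26-edited libraries. The authors deposited RSEM expected counts, TPM and, as other values per the file headers, the effective length of each gene, and the submitters' processing notes name STAR 2.7.6a, RSEM 1.3.1 and the build GRCm38. Annotation version and strand setting: not given in the sources used here. Expected counts were rounded, genes filtered by group (minimum count 10, minimum total 15), scaled with TMM factors and tested in R 4.3.3 with edgeR 4.0.16 (robust quasi-likelihood, two-sided, run and group as terms, 7 residual degrees of freedom), with Benjamini-Hochberg adjustment over 14393 genes and a threshold of 0.05. Run r711 adds to the spread alone. DESeq2 1.42.0 and the settings in the closing section were alternatives, and the steps were tested on simulated data. Log2 CPM used a prior count of 2. Permutations ran over all 8640 re-pairings of libraries within run. Of 55536 identifiers, 55450 had a symbol, and promoter sequences are RefSeq's (GRCm38.p6). Members and lists were chosen with earlier results of these data known. Named genes were the members, up to 3 genes per list by smallest p, the 5 most and 3 least like Thrsp, and Mid1ip1, Thrb, Thra, Nr1h3, Insig1, Insig2 and Scap, and some genes that the rule picks are not reported here. Clec4f, Adgre1, Vsig4 and Marco were named after their values were seen. The miRNA libraries were not used here.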

Additional observations from a re-analysis of the deposited data

How the results depend on the processing

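The alternatives were other size factors, no filter, no run term, r770 alone, a replicate block with or without the run term, effective lengths as offsets, no mitochondrial genes, WRE-edited 4 and 6 summed, each library left out, and DESeq2. Those without r711, DESeq2 for the run difference and leave-one-out for co-variation (other than for WRE-edited 4) were added after seeing the data. Genes called lower (1 as reported) came to 318 with no filter, 0 with no run term, 0 in r770 only, 2 with the replicate block and run term, 66 by DESeq2, 0 without r711 and 0 to 2 with a library left out. Genes called higher (0 as reported) came to 132 with no filter and 17 by DESeq2. Members called (0 as reported) came to 1 with no filter and 1 by DESeq2, each time Thrsp, at -1.03 (adjusted p 1.336e-07, edgeR with no filter) and -1.02 (0.00220, DESeq2). With no filter edgeR also called Angptl4 (adjusted p 1.336e-07), Cidec (0.00343), Gbp7 (0.0111), Insig1 (0.0133), Cry1 (0.0186) and Pnpla2 (0.0289), and DESeq2 called Creb3l3 (0.0439). In the no-filter fit the SE was 0.16 to 0.18 for every member tested, against 0.15 to 0.35 as reported. Its p-values for the members therefore do not measure each gene's own spread between libraries. The difference between runs was called for 7 genes by DESeq2 and 0 by edgeR. Co-variation of Thrsp with the members gave 0 calls in every alternative. The cause of these changes was not tested.

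Replicate numbers showed no sign of pairing the libraries. Deviations of same-numbered libraries from their group means correlated at 0.13, -0.09, 0.18, 0.01 and -0.07, and 0 of 5 correlated best with their own number. Replicates 4 and 5 of the groups lie in different runs, so the run enters those values. With run and group removed they were -0.11, -0.41, -0.02, 0.12 and 0.15, and again no own number was best. The replicate block with the run term gave Thrsp -1.08 (adjusted p 0.770) and without the run term -0.66 (0.900).

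Signs turned under these settings, for larger differences too (Cry1 0.74, Arrdc4 0.42 and Usf2 0.39 as reported). With no run term: Mlxipl -0.23, Fasn -0.26, Elovl6 0.12, Arntl -0.19, Cry1 -0.13, Gpi1 -0.01, Nr1h3 -0.05, Shprh 0.05. With libraries WRE-edited 4 and 6 added together (no run term): Mlxipl -0.28, Fasn -0.29, Elovl6 0.15, Arntl -0.26, Arrdc4 -0.03, Cry1 -0.17, Gpi1 -0.11, Nr1h3 -0.06, Shprh 0.04. With the replicate block and no run term: Mlxipl -0.24, Fasn -0.32, Acaca 0.00, Elovl6 0.22, Arntl -0.76, Arrdc4 -0.27, Cry1 -0.52, Gpi1 -0.26, Nr1h3 -0.10, Shprh 0.10, Usf2 -0.02. In r770 only, Acaca was 0.10 and Me1 -0.06, and with the replicate block and run term 0.10 and -0.07. With effective lengths as offsets, Med1 was -0.07. Leaving out 1 library moved Acaca between -0.23 and 0.09, Acly -0.19 and 0.09, Fasn -0.19 and 0.24, Me1 -0.07 and 0.18, Mlxipl -0.10 and 0.36, Scd1 -0.25 and 0.34, Insig2 -0.10 and 0.20, and Thra -0.18 and 0.09. With no change of sign it moved Srebf1 between -0.52 and -0.21, Elovl6 -0.26 and -0.01, Cry1 0.18 and 1.05, Cidec 0.97 and 1.87, and Hr -1.44 and -0.53. Depth limits Pnpla3 most, at 3 to 23 counts.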
